A study of Homo sapiens with 7 samples.

Results

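The genes described here are the 10 human genes EIF4A1, EIF4A2, EIF4A3, EIF4B, EIF4E, EIF4E2, EIF4G1, EIF4G2, EIF4G3 and EIF4H, which encode the EIF4A, EIF4G and EIF4E translation factors and their helpers. They were chosen by gene symbol from 16044 genes listed over the 3 deposited tables, and all 10 were listed in every table. Polyadenylation sites (PASs) on the strand of the gene numbered 31 of 52403 in the table of batch 1, 32 of 45071 in the table of the double knockdown (KD) and 29 of 35227 in that of batch 2. The study asked how the nuclear poly(A) polymerases Star-PAP, PAPα and PAPγ affect which PAS is used and how much of each mRNA is made. The cells were HEK293, an established human line from embryonic kidney. They received control siRNA (siCtrl) or siRNA to Star-PAP (siStar-PAP), to PAPα (siPAPα), to PAPγ (siPAPγ) or to both PAPα and PAPγ (siPAPα+γ). Each condition had 1 library, made by 3′READS, and siCtrl and siStar-PAP had a second one in batch 2, made by 3′READS+. The siPAPα+γ library was compared with the siCtrl library of batch 1, so the 4 comparisons outside batch 2 share that control and are not independent of each other. Only the batch 2 libraries carry a batch in their labels, and the study speaks of different batches for siStar-PAP and the double KD. If siPAPα+γ was prepared apart from its siCtrl, that difference cannot be told apart from the KD. With 1 library on each side of a comparison, intervals cover counting error only, and no test of a condition was possible outside the fits over both batches.

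Translation of most mRNAs begins when eIF4E binds the cap at the 5′ end. The scaffold eIF4G then joins eIF4E to the RNA helicase eIF4A, which unwinds the leader with the help of eIF4B and eIF4H, and eIF4G also contacts the poly(A) binding protein at the other end of the mRNA. EIF4A1 and EIF4A2 encode the close paralogs of this helicase, while EIF4A3 encodes the related helicase of the exon junction complex, which marks spliced mRNA. EIF4E2 encodes a cap-binding relative of eIF4E that represses translation, and EIF4G2 encodes a relative of eIF4G that lacks the part that binds eIF4E. In 3′ end sequencing a read marks the place where an RNA was cleaved and given its poly(A) tail. Each RNA molecule has 1 such end, so that levels need no scaling for length. They count only reads at the PASs listed for a gene, so comparisons between genes are of those reads.

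Sequences are shown for PASs of EIF4A1, EIF4A3 and EIF4G1 whose use differed between libraries. They are not shown for EIF4G3 and EIF4A2, where some shares differed by more. The sequences printed are those just before each PAS. They were read from the GRCh37 assembly, which has the hg19 coordinates of the files, on the transcribed strand, and the capitals mark the poly(A) signal AATAAA or ATTAAA, where a window of 30 bases before the PAS held one. The first pair is that of EIF4A1, in the 3′UTR of its last exon, 141 and 520 nt after the stop codon.
EIF4A1 proximal, chr17:7481915-7481944, plus strand: ctttgAATAAAtgtcactttttgaggcaaa
EIF4A1 distal, chr17:7482294-7482323, plus strand: aaattctgAATAAAatgacttggaaactgc
Both sites of EIF4A1 have the AATAAA form. Because an AUA element has been linked to Star-PAP binding, ATA was looked for from −100 to −41 nt of each PAS, on the transcribed strand only. The distal site of EIF4A1 had 1, starting at −61, and the proximal site had 0. Its surroundings are shown with ATA in capitals.
EIF4A1 before the distal PAS, chr17:7482250-7482279, plus strand: tacattgttttgtATAgtatttattgattc
ATA was present in the same window of 59.5% of the 72453 sense PASs listed over all genes, and of 31 of the 46 distinct PAS positions of these genes (67.4%), so a match alone sets no PAS apart. The next group holds the 3 PASs of EIF4A3, all in the 3′UTR, at 144, 226 and 272 nt after the stop codon, of which the middle one alone has a signal.
EIF4A3 first, chr17:78109146-78109175, minus strand: tggcctgccgtctcccttcctttgaagagg
EIF4A3 middle, chr17:78109064-78109093, minus strand: taagtctttttcATTAAAaatttaaaactt
EIF4A3 last, chr17:78109018-78109047, minus strand: acttctaaggtgccaccaccttctctagta
For EIF4G1, the sites that carried most reads lie 147 and 445 nt after the stop codon, with AATAAA at the first and ATTAAA at the second.
EIF4G1 proximal, chr3:184052813-184052842, plus strand: tgtctgaactAATAAAgtggctgaagaggc
EIF4G1 distal, chr3:184053111-184053140, plus strand: gcctgtaattATTAAAcatgaattcaatta
Searched within 40 nt before the PAS on the transcribed strand, AATAAA stood at 26 of the 46 positions (56.5%, against 45.2% of all sense PASs) and ATTAAA without AATAAA at 3 (6.52%, against 15.8%).

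Levels are in RPM, the reads of a gene for each 1000000 PASS reads of the library, where PASS reads are those with extra Ts from the poly(A) tail. The tables held between 2347192 and 16191098 sense reads a library, 54.5% to 70.5% of its PASS reads. TUT1, which encodes Star-PAP, had 83 reads in siCtrl and 2 in siStar-PAP, but 6 and 4 reads in batch 2, which are too few to check that label. PAPOLA, which encodes PAPα, had 71 reads in siCtrl, 12 with siPAPα and 8 in siPAPα+γ, whereas PAPOLG, which encodes PAPγ, had 5 in siCtrl, 15 in the library labelled siPAPγ and 6 in siPAPα+γ. PAPOLG was thus not lower in the library labelled siPAPγ, whose label the counts could not check and which is called siPAPγ here by that label. The study reports from immunoblots that the KDs were effective at the protein level, which was not analysed here. The HEK293 genes PAX2, LHX1 and NEFM were sparse, with NEFM between 1 and 280 reads, and of the markers of other cells PTPRC, ALB and CDH5 were not listed and COL1A1 had 0 to 12 reads. A lower RPM in bulk RNA can mean fewer cells with the mRNA or less of it per cell, which cannot be told apart here.

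The 10 genes covered a wide range of levels. In siCtrl of batch 1 the order was EIF4E2 at 481 RPM, EIF4G2 at 195, EIF4A1 at 143, EIF4A3 at 43.2, EIF4E at 42.8, EIF4G1 at 12.7, EIF4G3 at 7.18, EIF4A2 at 4.20, EIF4B at 3.68 and EIF4H at 0.263. Of the neighbours in this order, EIF4A3 and EIF4E, and EIF4A2 and EIF4B, had overlapping 95% counting intervals (39.5 to 47.2 against 39.1 to 46.8 RPM, and 3.10 to 5.57 against 2.65 to 4.97 RPM). EIF4A1 thus had many more reads at listed PASs than its paralog EIF4A2, and EIF4G1 and EIF4G3 stood far below EIF4G2. The order differed in batch 2. In siCtrl of batch 2 EIF4A1 was highest at 524 RPM, EIF4E2 followed at 268, and EIF4E stood at 3.17 RPM, with an interval (1.81 to 5.15) that overlaps those of EIF4G3, EIF4A2 and EIF4B. The batches differ in protocol, and its part in these values cannot be told apart from the rest of the batch, so values are compared within a table.

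**Figure D1:**
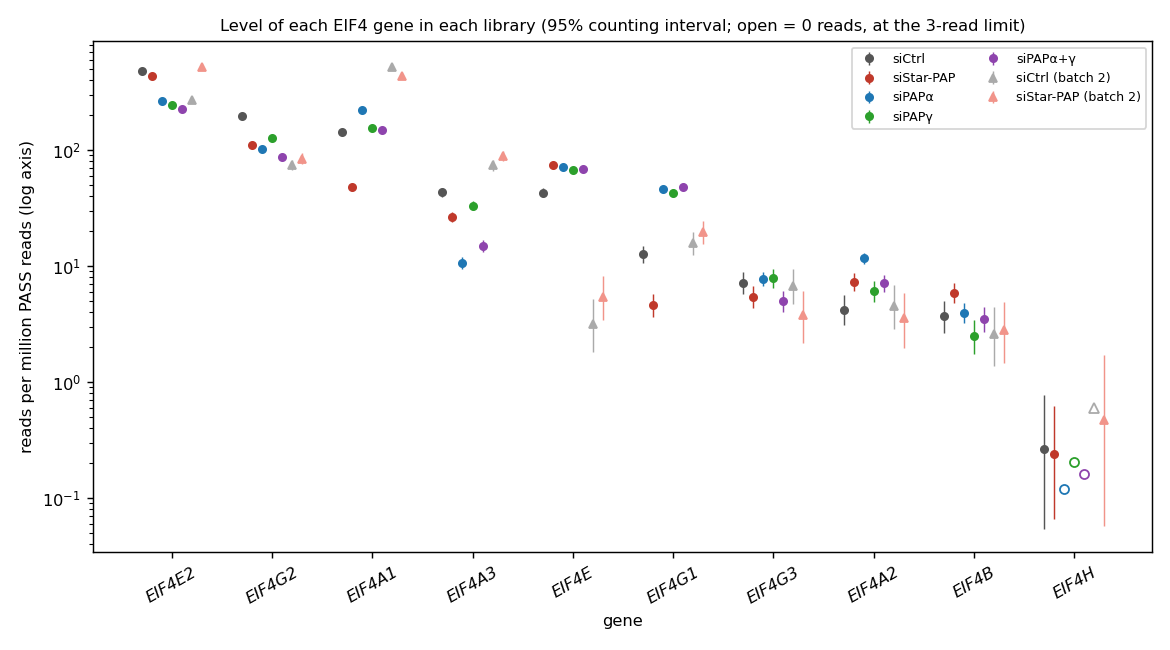
RPM (log axis) of each EIF4 gene in each of the 7 libraries, with bars for the 95% Poisson interval, circles for batch 1 and the double KD, and triangles for batch 2. EIF4A1 is lowest in siStar-PAP of batch 1, EIF4G1 is highest in the siPAPα, siPAPγ and siPAPα+γ libraries, and EIF4E is far lower in batch 2.

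EIF4A1, the main eIF4A helicase gene (chromosome 17, 7476142 to 7482324 of hg19, plus strand), was picked for its response to Star-PAP KD, so its values in siStar-PAP are given as a description. It had 143 RPM in siCtrl, 47.7 in siStar-PAP, 219.8 with siPAPα, 153 with siPAPγ and 148 in siPAPα+γ, and in batch 2 it had 524 RPM in siCtrl and 432 in siStar-PAP. By RPM both siStar-PAP libraries were thus below their siCtrl, but by unequal amounts. The log2 ratio was −1.58 (95% interval −1.71 to −1.46) in batch 1 and −0.28 (−0.37 to −0.19) in batch 2. Set against the median of all genes tested, these were −1.14 and −0.12. The log2 ratio was 0.62 (0.54 to 0.70) in siPAPα, 0.10 (0.01 to 0.19) in siPAPγ and 0.05 (−0.04 to 0.13) in siPAPα+γ.

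The reads of EIF4A1 fell at 2 PASs, 379 nt apart. The proximal PAS had 57 reads in siCtrl, 143 in siStar-PAP, 156 with siPAPα, 111 with siPAPγ and 122 in siPAPα+γ, and 1237 and 1413 in siCtrl and siStar-PAP of batch 2. The distal PAS had 1577, 647, 5359, 2159 and 2652 reads in the same order, and 1410 and 423 in batch 2. The 2 isoforms therefore stood on opposite sides of siCtrl in both siStar-PAP libraries. In batch 1 proximal ends went from 4.99 to 8.64 RPM and distal ends from 138 to 39.1 RPM, and in batch 2 proximal ends went from 245 to 333 RPM and distal ends from 279 to 99.5 RPM. On the log2 scale the distal isoform changed by −1.82 (−1.95 to −1.69) and −1.49 (−1.65 to −1.33), closer to each other than the totals of the gene. The proximal isoform held 3.49% of the reads of the gene in siCtrl of batch 1 and 46.7% in siCtrl of batch 2. The share of the distal PAS was 96.5% (95.5 to 97.3%) in siCtrl, 81.9% (79.0 to 84.5%) in siStar-PAP, 97.2% with siPAPα, 95.1% with siPAPγ and 95.6% in siPAPα+γ, and it was 53.3% (51.3 to 55.2%) and 23.0% (21.1 to 25.0%) in batch 2.

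The relative expression difference (RED), the log2 ratio of distal to proximal reads in a KD minus that in its siCtrl, was −2.61 (−3.06 to −2.14) in siStar-PAP and −1.93 (−2.12 to −1.74) in batch 2. RED is undefined where a site lacked reads in a library, and such genes were left out. Of 4749 genes with a defined RED and more than 50 reads at their last-exon pair, 5.33% were as low in siStar-PAP. In batch 2 this was 6.11% of 3325. With 1 read added to each count, which keeps the genes left out, it was 7.68% of 5832 and 7.26% of 3815. RED was 0.31 (−0.12 to 0.76) in siPAPα, −0.51 (−0.97 to −0.03) in siPAPγ and −0.35 (−0.80 to 0.12) in siPAPα+γ, and Fisher's exact test between each KD and siCtrl gave adjusted p = 0.299, 0.112 and 0.260. At this depth the distal share of EIF4A1 differed from that in siCtrl by 0.660 points in siPAPα, −1.40 points in siPAPγ and −0.910 points in siPAPα+γ. The annotation places an unnamed lncRNA over both sites, and the readthrough transcript SENP3-EIF4A1 over the proximal one, so reads of these cannot be told from those of EIF4A1.

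**Figure D2:**
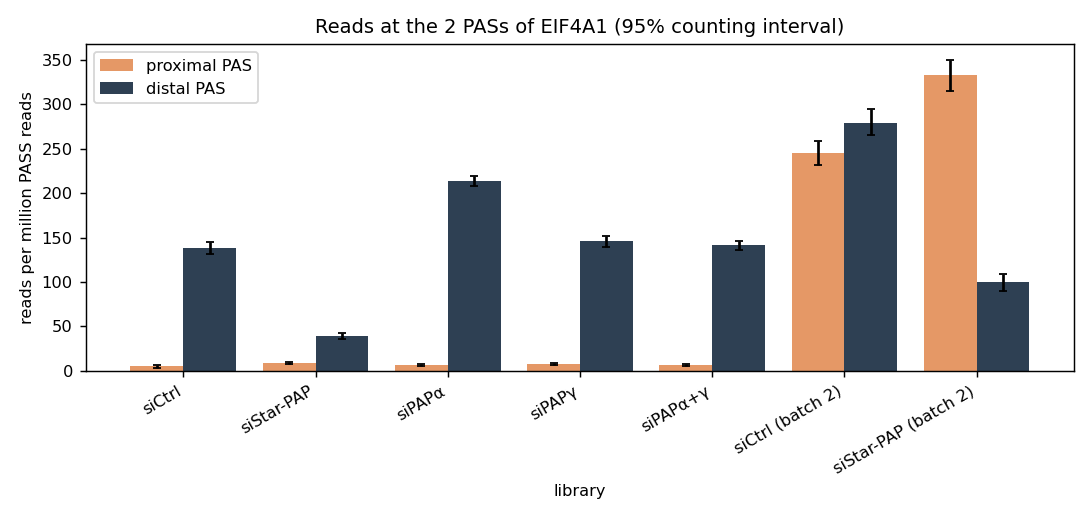
RPM at the proximal and the distal PAS of EIF4A1 in the 7 libraries, with bars for the 95% Poisson interval. The distal bar is below that of siCtrl in both siStar-PAP libraries (138 to 39.1 and 279 to 99.5 RPM) and the proximal bar above it.

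EIF4A2, the paralog (chromosome 3, 186500994 to 186507686, plus strand), had few reads and went the other way from EIF4A1 in siStar-PAP of batch 1. Its level was 4.20 RPM in siCtrl, 7.31 in siStar-PAP, 11.6 with siPAPα, 6.08 with siPAPγ and 7.08 in siPAPα+γ, and 4.56 and 3.53 RPM in siCtrl and siStar-PAP of batch 2. All 4 KD libraries set against the first siCtrl were above it, with log2 ratios of 0.80 (0.31 to 1.31), 1.47 (1.03 to 1.94), 0.53 (0.01 to 1.07) and 0.75 (0.27 to 1.26). Batch 2, with 23 and 15 reads, gave −0.37 (−1.41 to 0.63), which at this depth shows neither direction.

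A PAS that the table places in an intron of EIF4A2 (position 186506216, in an exon of other transcripts of the gene in GENCODE) held 29 of its 48 reads in siCtrl (60.4%). Its share was 38.0% in siStar-PAP, 37.7% with siPAPα, 71.1% with siPAPγ and 27.1% in siPAPα+γ, and it held 10 of 23 reads and 15 of 15 reads in siCtrl and siStar-PAP of batch 2. The intronic share was therefore lower in siStar-PAP of batch 1 (Fisher's exact test, adjusted p = 0.0323) but higher in that of batch 2 (adjusted p = 0.0107), so that the direction did not repeat. In the last exon a PAS 130 nt before the most distal one had 2 reads in siCtrl against 40 in siStar-PAP, 56 with siPAPα and 12 with siPAPγ, and the table of the double KD, which sets this PAS 135 nt before it, had 2 in siCtrl and 27 in siPAPα+γ. The RED of this pair, −3.28 (−5.02 to −0.98) in siStar-PAP, rests on those 2 control reads, and in batch 2 no such pair had reads in siStar-PAP.

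EIF4A3, the helicase of the exon junction complex (chromosome 17, 78108168 to 78120950, minus strand), was lowest where PAPα was targeted. It had 43.2 RPM in siCtrl, 26.4 in siStar-PAP, 10.6 with siPAPα, 33.1 with siPAPγ and 15.0 in siPAPα+γ, and 73.9 and 89.2 RPM in siCtrl and siStar-PAP of batch 2. The log2 ratio was −2.03 (−2.25 to −1.81) in siPAPα and −1.53 (−1.74 to −1.31) in siPAPα+γ, against −0.38 (−0.57 to −0.20) in siPAPγ. In siStar-PAP it was −0.71 (−0.90 to −0.52) in batch 1 and 0.27 (0.06 to 0.48) in batch 2, which are opposite directions.

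The last PAS of EIF4A3 carried most of this difference. It had 238 reads in siCtrl, 181 in siStar-PAP, 32 with siPAPα, 154 with siPAPγ and 40 in siPAPα+γ, while the first PAS had 216, 201, 182, 268 and 154. The table of the double KD gives siCtrl 232 reads at the last PAS, with 6 more at the middle one. In RPM the last PAS went from 20.8 to 1.28 with siPAPα, 0.0612-fold (0.0410 to 0.0888), and the first from 18.9 to 7.26, 0.384-fold (0.313 to 0.470). Its share of the gene was 48.2% in siCtrl, 41.4% in siStar-PAP, 12.1% with siPAPα, 31.4% with siPAPγ, and it was 47.0% in siCtrl and 14.2% in siPAPα+γ in the table of the double KD. By Fisher's exact test the last PAS had adjusted p = 3.52e-23 for siPAPα, 2.26e-06 for siPAPγ and 9.47e-20 for siPAPα+γ, against 0.0944 for siStar-PAP. The RED of the first and last PASs was −2.65 (−3.23 to −2.03), −0.94 (−1.33 to −0.55) and −2.05 (−2.60 to −1.47) in siPAPα, siPAPγ and siPAPα+γ, so these 3 comparisons, with 1 control, leaned to the proximal site. With PASs within 50 nt merged, which joins the middle and last PASs, RED was −1.50, −0.64 and −0.63, in the same direction. In batch 2 the middle PAS, the one with ATTAAA, held 320 of 373 reads in siCtrl and 324 of 379 in siStar-PAP, where it had held 40 of 494 in siCtrl of batch 1. The shares of EIF4A3 thus differed more between the siCtrl libraries of the batches than between siStar-PAP and siCtrl of batch 2, where no PAS passed the test (adjusted p between 0.417 and 1).

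**Figure D3:**
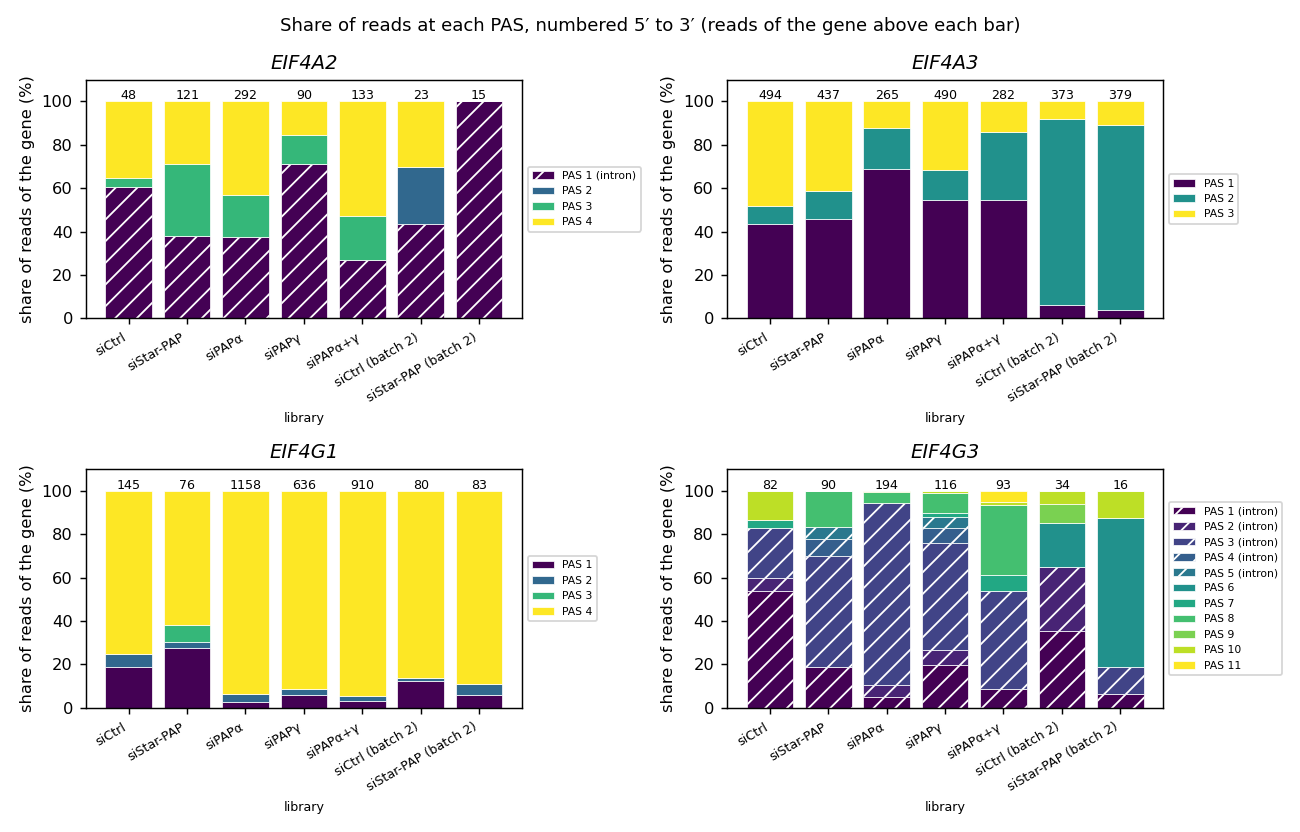
Share of the reads of EIF4A2, EIF4A3, EIF4G1 and EIF4G3 at each PAS, numbered from 5′ to 3′, in the 7 libraries, with intronic PASs hatched and the reads of the gene above each bar. The last PAS of EIF4A3 shrinks from 48.2% in siCtrl to 12.1% with siPAPα, the last PAS of EIF4G1 grows from 75.2% to 93.5%, and EIF4A3 has another main PAS in batch 2.

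EIF4B, which helps the helicase (chromosome 12, 53400066 to 53435999, plus strand), had 3.68 RPM in siCtrl, 5.86 in siStar-PAP, 3.95 with siPAPα, 2.50 with siPAPγ and 3.51 in siPAPα+γ. Only siStar-PAP had an interval of the log2 ratio off 0, at 0.67 (0.14 to 1.23), and batch 2, with 13 and 12 reads, gave 0.13 (−1.13 to 1.38). The main pair of last-exon PASs, 1321 nt apart, had 26 proximal and 13 distal reads in siCtrl, 69 and 13 in siStar-PAP, 32 and 55 with siPAPα, 16 and 17 with siPAPγ and 27 and 26 in siPAPα+γ. In siStar-PAP the pair leaned to the proximal site, with RED −1.41 (−2.66 to −0.13). In siPAPα it leaned to the distal site, with RED 1.78 (0.61 to 2.88). By Fisher's exact test the proximal and distal PASs passed in siPAPα (adjusted p = 0.00642 and 0.0301). Neither passed in siStar-PAP (adjusted p = 0.450 and 0.0525). The other helper, EIF4H, could not be measured. It had 3 reads in siCtrl, 4 in siStar-PAP and 2 in siStar-PAP of batch 2, and 0 in the other 4 libraries, where 3 reads would be between 0.120 and 0.594 RPM. The 4 reads in siStar-PAP lay 5703 nt past the nearest transcript end of EIF4H, within LAT2 on the same strand. EIF4H was left out, for its few reads, of the counts of levels that use the filter on reads.

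EIF4E, the cap-binding protein (chromosome 4, 99800427 to 99850284, minus strand), was above siCtrl in every KD library. It had 42.8 RPM in siCtrl, 74.2 in siStar-PAP, 71.8 with siPAPα and 67.3 with siPAPγ, and in the table of the double KD, which lists more of its PASs, 46.2 in siCtrl and 68.5 in siPAPα+γ. The log2 ratios were 0.79 (0.64 to 0.95), 0.75 (0.60 to 0.89), 0.65 (0.50 to 0.81) and 0.57 (0.42 to 0.72), a narrow range for ratios against 1 control library. In batch 2 it had 3.17 and 5.41 RPM, a log2 ratio of 0.77 (−0.21 to 1.79) that rests on 16 and 23 reads.

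The site of EIF4E with most reads outside batch 2, 967 nt after the stop codon, has AATAAA in the window chr4:99801213-99801242, minus strand, whose sequence is shown because this PAS carried the level of the gene.
EIF4E main: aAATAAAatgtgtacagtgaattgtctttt
It held 464 of 489 reads in siCtrl, 1166 of 1228 in siStar-PAP, 1771 of 1802 with siPAPα and 902 of 996 with siPAPγ. Its share was 94.9% in siCtrl, 95.0% in siStar-PAP, 98.3% with siPAPα and 90.6% with siPAPγ, so that siPAPα and siPAPγ were on opposite sides of siCtrl by a few points (Fisher's exact test, adjusted p = 5.79e-04 and 0.0225). In the table of the double KD it was 87.9% in siCtrl and 94.7% in siPAPα+γ (adjusted p = 1.43e-05). In batch 2 this PAS held 4 of 16 reads in siCtrl and 5 of 23 in siStar-PAP.

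EIF4E2, the repressive relative of eIF4E (chromosome 2, 233415369 to 233448354, plus strand), had 1 PAS in each table (position 233433920), 193 nt after a stop codon. It had 481 RPM in siCtrl, 436 in siStar-PAP, 266 with siPAPα, 242 with siPAPγ and 226 in siPAPα+γ, and 268 and 523 RPM in siCtrl and siStar-PAP of batch 2. The siPAPα, siPAPγ and siPAPα+γ libraries lay close together, at log2 ratios of −0.86 (−0.91 to −0.80), −0.99 (−1.05 to −0.93) and −1.09 (−1.15 to −1.04). In siStar-PAP the ratio was −0.14 (−0.19 to −0.09) in batch 1, which turns to 0.34 with the TMM factors of edgeR, and 0.96 (0.86 to 1.06) in batch 2. EIF4E and EIF4E2 therefore stood on opposite sides of siCtrl in the PAPα and PAPγ comparisons, under every scaling tried.

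EIF4G1, the main scaffold (chromosome 3, 184032283 to 184053146, plus strand), separated siStar-PAP from the other KDs set against the same siCtrl. It had 12.7 RPM in siCtrl, 4.59 in siStar-PAP, 46.2 with siPAPα, 43.0 with siPAPγ and 48.4 in siPAPα+γ, and 15.8 and 19.5 RPM in siCtrl and siStar-PAP of batch 2. The siPAPα, siPAPγ and siPAPα+γ libraries were 3.64-fold (3.06 to 4.35), 3.39-fold (2.82 to 4.09) and 3.82-fold (3.20 to 4.58) above siCtrl, and siStar-PAP was 0.362-fold (0.270 to 0.481) of it. In batch 2 the ratio was 1.23-fold (0.896 to 1.70), so the low value in siStar-PAP was not seen again.

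The distal PAS of EIF4G1 held most of its reads in every library. It had 109 reads in siCtrl, 47 in siStar-PAP, 1083 with siPAPα, 581 with siPAPγ and 860 in siPAPα+γ, and 69 and 74 in batch 2, whereas the proximal PAS had 27, 21, 33, 37 and 29 reads and then 10 and 5. Distal ends were 4.53-fold (3.71 to 5.56), 4.12-fold (3.35 to 5.10) and 4.80-fold (3.93 to 5.91) above siCtrl in the siPAPα, siPAPγ and siPAPα+γ libraries. The distal share went from 75.2% in siCtrl to 93.5%, 91.4% and 94.5% there (Fisher's exact test, adjusted p = 2.98e-09, 1.05e-05 and 3.13e-10), and it was 61.8% in siStar-PAP (adjusted p = 0.100). The RED was 3.02 (2.24 to 3.80) in siPAPα, 1.96 (1.19 to 2.73) in siPAPγ, 2.88 (2.07 to 3.68) in siPAPα+γ and −0.85 (−1.80 to 0.10) in siStar-PAP. The medians over all genes with a defined RED were 0.21, 0.06, 0.33 and 0.03. Of 5474 such genes in siPAPα, 93.9% had a RED no higher, and with 1 read added 93.0% of 6530. EIF4G1 and EIF4A3 therefore leaned to opposite ends of their 3′UTRs in siPAPα, siPAPγ and siPAPα+γ alike. The call of EIF4G1 in siStar-PAP rests on a minor PAS 401 nt after the stop codon, with 0 reads in siCtrl and 6 in siStar-PAP (adjusted p = 0.00706).

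**Figure D4:**
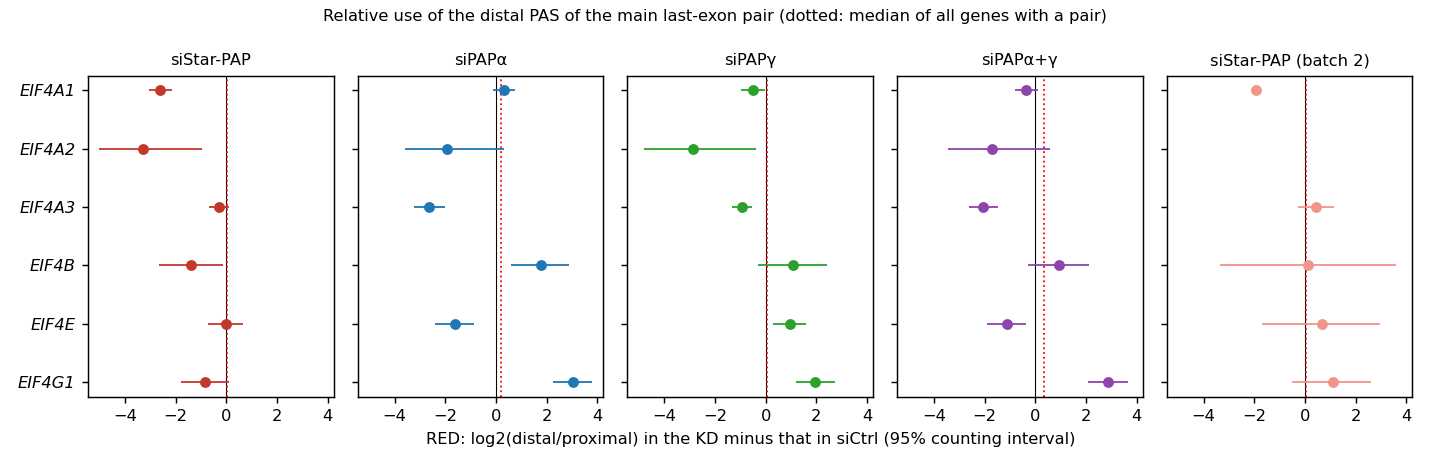
RED of the main last-exon PAS pair of 6 EIF4 genes in the 5 comparisons, with 95% intervals from the reads. Negative values mean relatively fewer distal ends in the KD. The dotted line is the median of all genes with a defined RED. EIF4A1 is far below 0 in both siStar-PAP comparisons (−2.61 and −1.93), EIF4A3 with siPAPα and siPAPα+γ, and EIF4G1 is above 0 in the siPAPα, siPAPγ and siPAPα+γ libraries. EIF4A2 has no value in batch 2, where siStar-PAP had 0 reads at its pair.

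EIF4G2, which has a single PAS (chromosome 11, position 10818601, minus strand, 762 nt after the stop codon), was below siCtrl in all 4 KD libraries set against it. It had 195 RPM in siCtrl, 111 in siStar-PAP, 102 with siPAPα, 128 with siPAPγ and 87.2 in siPAPα+γ, and 74.1 and 84.5 RPM in siCtrl and siStar-PAP of batch 2. The log2 ratios were −0.81 (−0.90 to −0.72), −0.94 (−1.02 to −0.86), −0.60 (−0.69 to −0.52) and −1.16 (−1.25 to −1.07) and, in batch 2, 0.19 (−0.02 to 0.40). The end of CTR9 on the other strand overlaps this PAS, and the tables keep the strands apart.

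EIF4G3, the third scaffold gene (chromosome 1, 21132785 to 21503778, minus strand), had low levels, between 3.77 and 7.84 RPM, while its reads lay at other PASs in the KDs. It had 7.18 RPM in siCtrl, 5.44 in siStar-PAP, 7.73 with siPAPα, 7.84 with siPAPγ and 4.95 in siPAPα+γ, and 6.73 and 3.77 RPM in siCtrl and siStar-PAP of batch 2. Outside batch 2 most of its reads lay at PASs that the tables place in introns, so that they do not mark the end of the whole scaffold mRNA. Which transcripts end at these PASs was not tested. The PAS nearest to the start of the gene (position 21502175) had 44 of 82 reads in siCtrl, 17 of 90 in siStar-PAP, 10 of 194 with siPAPα, 23 of 116 with siPAPγ, and in the table of the double KD 44 of 83 in siCtrl and 8 of 93 in siPAPα+γ. Its share was thus lower in all 4 KD libraries (53.7% in siCtrl, 18.9%, 5.15%, 19.8% and 8.60%, with adjusted p of Fisher's exact test between 2.49e-17 and 3.64e-05), and it was 35.3% and 6.25% in batch 2 (12 and 1 reads, adjusted p = 0.230). A PAS in an intron far downstream (position 21287345) had 19, 46, 163, 57 and 42 reads in the same order, and its share went from 23.2% in siCtrl to 51.1% in siStar-PAP, 84.0% with siPAPα and 49.1% with siPAPγ, and from 22.9% to 45.2% in siPAPα+γ. In batch 2 it had 0 and 2 reads. In the last exon, a PAS 434 nt after the stop codon had 0 reads in siCtrl, 15 in siStar-PAP, 10 with siPAPα, 11 with siPAPγ and 30 in siPAPα+γ. Of these the siStar-PAP, siPAPγ and siPAPα+γ libraries passed the test (adjusted p = 3.67e-04, 0.0175 and 1.35e-08) and siPAPα did not (0.0849). A PAS further down, 866 nt after the stop codon in batch 1 and 844 nt in the table of the double KD, had 11 reads in siCtrl and at most 1 in these KDs.

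Counted together, the genes did not move one way. A gene was taken as past the threshold when its RPM differed more than 1.4-fold from siCtrl and it had more than 50 reads over the pair. In siStar-PAP 4 of 9 genes were lower (EIF4A1, EIF4A3, EIF4G1 and EIF4G2) and 3 higher (EIF4A2, EIF4B and EIF4E), where 48.2% of all genes tested were lower and 12.4% higher. In siPAPα 3 of 9 were lower (EIF4A3, EIF4E2 and EIF4G2; 40.8% of all genes) and 4 higher (EIF4A1, EIF4A2, EIF4E and EIF4G1; 20.0%). In siPAPγ 3 of 9 were lower (EIF4B, EIF4E2 and EIF4G2; 42.3% of all genes) and 3 higher (EIF4A2, EIF4E and EIF4G1; 14.6%), and in siPAPα+γ 4 were lower (EIF4A3, EIF4E2, EIF4G2 and EIF4G3; 45.6%) and 3 higher (EIF4A2, EIF4E and EIF4G1; 16.9%). In batch 2, where 5 passed the filter, 0 were lower (31.3%) and EIF4E2 was higher (14.6%). Outside batch 2 the shares below siCtrl by RPM, of 3 or 4 genes in 9, are near the background. Those above it are larger than the background by RPM but rest on 3 or 4 genes. Under TMM factors 3, 4, 4 and 3 of 9 were higher in siStar-PAP, siPAPα, siPAPγ and siPAPα+γ. Of all genes 2890 of 10079, 3497 of 10808, 2835 of 10163 and 3129 of 10022 were then higher, so the excess was smaller. The median gene itself was below siCtrl, at log2 ratios of −0.45, −0.26, −0.33, −0.38 and −0.16 in the order above, and the medians of these genes were −0.40, 0.11, 0.10, −0.07 and 0.27. TMM factors put the median gene near 0 (0.03, 0.08, 0.05, 0.05 and 0.01) and split the calls of all genes evenly, with 2779 lower and 2890 higher in siStar-PAP in place of 4860 and 1253, 2950 and 3497 with siPAPα in place of 4407 and 2157, 2599 and 2835 with siPAPγ in place of 4296 and 1481, 2914 and 3129 in siPAPα+γ in place of 4573 and 1689, and 1610 and 1543 in batch 2 in place of 2232 and 1039. Set against the median gene, EIF4A3 and EIF4G2 in siStar-PAP were at −0.27 and −0.37, no longer past 1.4-fold, while EIF4A1 was at −1.14, EIF4G1 at −1.02, EIF4A2 at 1.25, EIF4B at 1.12 and EIF4E at 1.24. Likewise EIF4G3 in siPAPα+γ was at −0.17 against the median gene, and EIF4B and EIF4G2 in siPAPγ at −0.23 and −0.28, so these calls also end there.

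**Figure D5:**
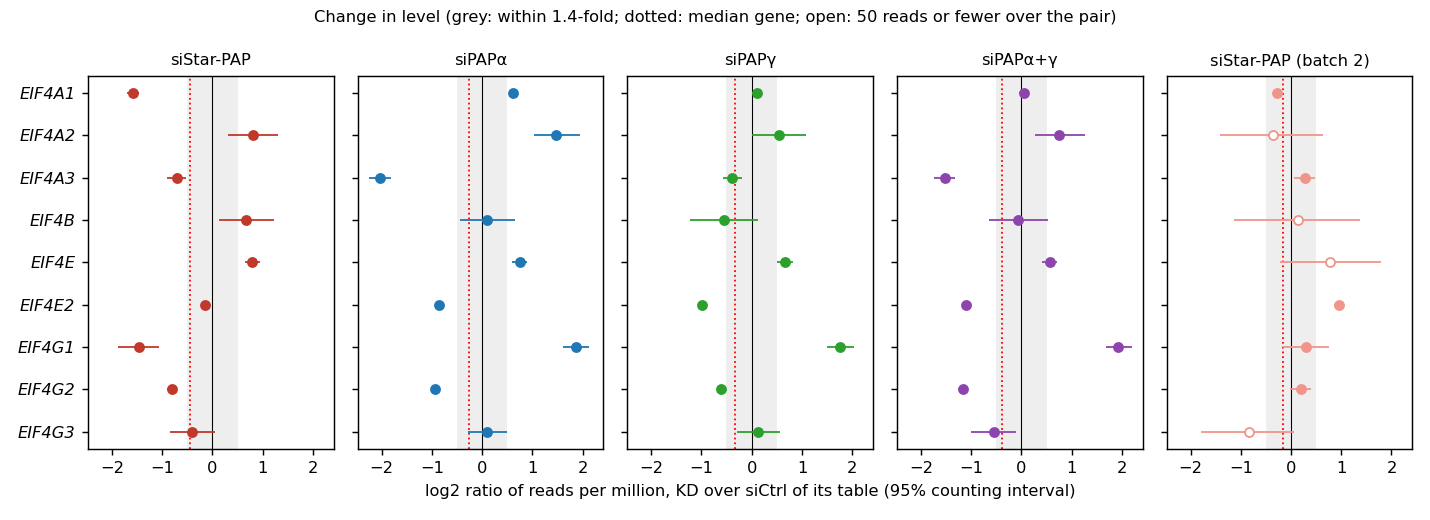
Log2 ratio of KD to siCtrl RPM for 9 EIF4 genes in the 5 comparisons, with exact 95% counting intervals, a grey band for changes within 1.4-fold and a dotted line at the median of all genes tested. EIF4E lies to the right of 0 in every panel, EIF4G1 to the right in siPAPα, siPAPγ and siPAPα+γ and to the left in siStar-PAP of batch 1, and open points have 50 reads or fewer.

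By Fisher's exact test with an adjusted p below 0.05, which compares 2 libraries and not conditions, PAS shares differed in 4 of 8 genes in siStar-PAP (EIF4A1, which was chosen for this, EIF4A2, EIF4G1 and EIF4G3), where 66.4% of all genes with more than 1 PAS had a call. The numbers were 6 of 7 with siPAPα (68.0% of all genes), 5 of 7 with siPAPγ (52.1%), 6 of 7 in siPAPα+γ (65.7%) and 3 of 7 in batch 2 (EIF4A1, EIF4A2 and EIF4G3; 13.1%). The gene without a call in siPAPα and siPAPα+γ was EIF4A1, and in siPAPγ EIF4B had none either. Outside batch 2 most genes had such a call, and the shares of EIF4 genes with one lie around that background. EIF4H was among the 8 in siStar-PAP through 7 reads. The call of EIF4G1 in siStar-PAP is lost when PASs within 50 nt are merged or a difference of 10 points is asked for (3 of 8), and the calls of EIF4E in siPAPα, siPAPγ and siPAPα+γ are lost at 10 points.

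Over both batches, with batch as a block, edgeR's quasi-likelihood test called 125 genes lower (1.08%) and 141 higher (1.21%) of 11614 in siStar-PAP, and 0 of the 9 EIF4 genes tested. EIF4E and EIF4E2 were the 2 with an unadjusted p below 0.05 (log2 change 1.19, adjusted p = 0.119, and 0.76, adjusted p = 0.303, by edgeR), and DESeq2 called 0 of 6 with 2 below 0.05. EIF4A1, which was picked for its response to Star-PAP KD, was at −0.58 with adjusted p = 0.461 by edgeR. It was below siCtrl by RPM in 2 of 2 batches, which describes that choice and lends it no support. For PAS use, diffSpliceDGE of edgeR called 4 of 5572 genes (0.0718%) and 0 of the 6 EIF4 genes tested, of which EIF4A1 and EIF4G3 had a PAS at an unadjusted p below 0.05. Relative to its gene, the proximal PAS of EIF4A1 had a log2 change of 1.52 by diffSpliceDGE (adjusted p = 0.620). In RPM this PAS changed by 0.79 in batch 1 and 0.44 in batch 2 on the log2 scale. These fits have 1 residual degree of freedom, which limits what they can call.

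The other initiation genes, a list of 40 with the subunits of eIF2, eIF2B and eIF3, the eIF4E binding proteins and the poly(A) binding proteins, also lay on both sides of siCtrl. Past 1.4-fold were 14 lower and 7 higher of 37 in siStar-PAP, 10 and 13 of 38 with siPAPα, 13 and 6 of 38 with siPAPγ, 13 and 6 of 36 in siPAPα+γ, and 7 and 10 of 33 in batch 2, with medians of −0.39, −0.12, −0.22, 0.05 and 0.10. Of all genes tested 48.2% were lower and 12.4% higher in siStar-PAP, 40.8% and 20.0% with siPAPα, 42.3% and 14.6% with siPAPγ, 45.6% and 16.9% in siPAPα+γ, and 31.3% and 14.6% in batch 2. A PAS share differed in 19 of 25, 24 of 25, 16 of 25 and 21 of 27 in the first 4 comparisons and in 2 of 27 in batch 2, beside 66.4%, 68.0%, 52.1%, 65.7% and 13.1% of all genes. By edgeR over both batches 0 of 38 were lower and 1 was higher. This was EIF3L, a subunit of eIF3, with 1588 reads in siCtrl and 6749 in siStar-PAP, and 20 and 61 in batch 2 (log2 change 2.06, edgeR adjusted p = 0.00585). The number higher was 2 with RLE factors, 3 without the filter on reads, 4 by DESeq2 and 0 without the block. EIF4EBP3, an inhibitor of eIF4E, had the largest log2 change upward, 2.29 (adjusted p = 0.457), on at most 22 reads a library. The lowest values were those of EIF1AD, −0.98 (adjusted p = 0.184), with 320 and 144 reads and then 183 and 79, and EIF4ENIF1, which encodes a transporter of eIF4E, −0.60 (adjusted p = 0.529), by the same test.

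The genes whose RED over the 5 comparisons lay nearest to that of EIF4A1, by Euclidean distance among 538 genes with at least 100 reads at the same pair in every library, were SMNDC1 at a distance of 1.42, ZSWIM7 at 1.57 and UCK1 at 1.60. Their RED was −1.76, −3.27 and −1.46 in siStar-PAP and −1.32, −1.37 and −2.08 in batch 2.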

How the data were processed

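HEK293 cells were profiled by 3′READS (5 libraries) and 3′READS+ (2 libraries). The authors mapped reads with Bowtie2 to hg19, clustered sites and deposited counts of PASS reads at each PAS, not normalized, in 3 tables, and siCtrl of batch 1 stands again beside the double KD (counts identical at 99.6% of 32475 shared PASs). No column was left without a sample. The 10 genes and the gene lists were chosen with earlier results of these data known.

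Sense rows were summed per gene. RPM used the PASS totals that the study gives, and reads of a PAS listed under several genes (521 in batch 1) were counted for each. Ratio intervals are exact conditional binomial, shares Clopper-Pearson, levels Poisson (95%), and RED intervals use log odds with 0.5 reads added to each count. The 3′ adapter that the study gives held random bases, but no removal of PCR copies is stated for these counts. Intervals therefore cover counting error only, and 0 reads allow up to 3. PAS shares were tested by two-sided Fisher's exact test with Benjamini-Hochberg adjustment over all PASs, and the RED pair was the 2 last-exon PASs with most reads in a table. Both siStar-PAP batches were fitted with edgeR 4.0.16 (TMM factors) and batch as a block, since each batch had its own siCtrl and protocol. Deviations of siCtrl and siStar-PAP from their means correlated at 0.922 over 3835 genes with at least 50 reads in each library. Whether the libraries of a condition came from separate cultures is not stated beyond the batch. The p-values of the fits over both batches measure the spread between these libraries. Those of Fisher's exact test compare reads of 2 libraries and take in counting error only.

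Named genes were the 10 members, the counts over 40 other initiation genes with the 2 largest changes in each direction of the fit over both batches, the targeted genes, and the 3 genes nearest to EIF4A1 in RED. PASs of the batches were matched within 24 nt. Annotation was GENCODE v44 lifted to GRCh37. Steps were tested on simulated data. Alternatives were other scalings (DESeq2 1.42.0 size factors among them), filters, folds, a pseudocount, merged PASs, another PAS pair, other fits and each batch alone. R 4.3.3, Python 3.11.15, numpy 2.4.6, pandas 2.3.3, scipy 1.17.1 and pysam 0.24.0 were used.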

Additional observations from a re-analysis of the deposited data

Results flagged for a closer look

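EIF4A3 and EIF4E2 moved in opposite directions in the siStar-PAP libraries of the 2 batches, with counting intervals off 0 in both. The log2 ratio of EIF4A3 was −0.71 in batch 1 and 0.27 in batch 2, and that of EIF4E2 was −0.14 and 0.96. The difference between the batches was not tested, since each has 1 library a condition, and with the TMM factors EIF4E2 was above siCtrl in both.

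Upstream antisense sites, which were left out of the reported levels and counted in an alternative alone, had a few reads near the starts of 3 of the genes, above those of siCtrl. EIF4B had 8 reads in siPAPα against 1 in siCtrl, EIF4G3 had 6 in siStar-PAP against 0, and EIF4H had 4 in siPAPα against 0 at one site, while another of its sites had 4 in siCtrl and 0 in siPAPα.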

How the results depend on the processing

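The number of EIF4 genes past the fold changed mainly with scaling and with the fold itself. With TMM factors, as with DESeq2 size factors, 2 genes were lower in siStar-PAP and 1 in siPAPγ, and totals of the sense rows also left 1 in siPAPγ, in place of 4 and 3. DESeq2 factors gave 2 higher in batch 2 in place of 1. At more than 2-fold, siStar-PAP had 2 lower and 0 higher, siPAPα 1 and 2, siPAPγ 0 and 1, siPAPα+γ 1 higher and batch 2 0 higher. Without the filter on reads batch 2 had 1 lower and 2 higher of 9. Of all genes, totals of the sense rows gave 3055 lower and 2373 higher in siPAPγ and 3458 and 2527 in siPAPα+γ, and DESeq2 factors 2793 and 2870 in siStar-PAP. EIF4G3 in siPAPα+γ went to −0.29 with those totals, −0.12 with TMM and −0.12 with DESeq2 factors, no longer past the fold. A pseudocount of 1 read and the antisense rows moved no count past 1.5 times.

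Without the replicate block, edgeR called 0 genes of 11614 (62 at an unadjusted p below 0.05) and 0 EIF4 genes, and diffSpliceDGE called 0 genes. EIF4G1 then turned to 0.0577 and EIF4G2 to −0.0528. With 1 batch left out, a value with no test, EIF4A3 lay between −0.23 and 0.45, EIF4G1 between −0.99 and 0.48, EIF4G2 between −0.34 and 0.37, and EIF4G3 was at 0.0787 in batch 1. In the fit over both batches 0 EIF4 genes were called with RLE factors, with DESeq2 or without the filter, and 0 in PAS use under each alternative run. The RED of EIF4A3 shrank with merged PASs, to −1.50 in siPAPα and −0.63 in siPAPα+γ, since the middle and last PASs are then 1. The RED of EIF4A1 kept its value within its interval under each alternative that gave one. The cause of the other changes was not tested. Depth limits EIF4A2, EIF4B, EIF4E and EIF4G3 in batch 2 and EIF4H throughout.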
